A study of Mus musculus with 12 samples.

Results

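The genes described here are those of antigen presentation by MHC class II molecules: *H2-Aa*, *H2-Ab1*, *H2-Eb1*, *H2-DMa*, *H2-DMb1*, *Cd74*, *Ciita*, *Cd80* and *Cd86*. These 9 genes were taken by symbol from a deposited table of epididymal white adipose tissue (eWAT), in which the transcripts summed to 22946 genes. RNA of whole eWAT was sequenced from 12 male C57BL/6J mice aged 21 weeks, 3 in each of 4 groups. The groups were fed for 16 weeks with a normal diet (ND), a high-fat diet (HFD), the HFD with 1.5% chrysanthemum leaf ethanol extract (CLE), or the HFD with 0.003% luteolin (LU), a flavone. The methods call the sequenced mice representative of their group, and the mice had been fasted before the tissue was taken.

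MHC class II molecules display peptides of proteins taken up by a cell to CD4+ T cells, and are made mainly by macrophages, dendritic cells and B cells. An α and a β chain assemble with the invariant chain (Cd74), cathepsins in endosomes cut the invariant chain away, H2-DM exchanges its last fragment for a peptide, and Cd80 and Cd86 on the same cell give the T cell its co-stimulatory signal. Ciita is the coactivator without which class II genes are hardly transcribed, and it acts through factors bound to the X and Y boxes of their promoters. In obese adipose tissue, macrophages gather around adipocytes, and both macrophages and adipocytes are known to carry class II molecules.

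Values are FPKM, which scale fragments to transcript length and library size and so allow levels of different genes to be set side by side per length. Read counts are not part of these values, and the depth behind them is unknown. Differences are on the log2(FPKM + 1) scale, on which changes of low genes come out smaller than they are, and were tested with limma over the 12774 genes with at least 1 FPKM in at least 3 libraries. A gene is called higher or lower when it changed by more than 1.5-fold with an adjusted p (Benjamini-Hochberg) under 0.05. Each of the 9 genes passed the filter on low values. The summed gene values were between 435095 and 455040 FPKM per library, and Pearson's r between mice of a group, across genes, was between 0.991 and 0.996. The column used for ND mouse 4 has a header of its own kind and was assigned to that mouse by inference. A letter R stands in the labels of 4 libraries, of ND mice 3 and 4, of CLE mouse 4 and of LU mouse 2, whereas the HFD group has none. *Krt14*, a keratin of skin, was at 16.8 FPKM in HFD mouse 12 and 21.7 FPKM in CLE mouse 11, and at most 1.06 FPKM in each other library.

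The class II genes of the mouse lie in the MHC on chromosome 17. In GENCODE M21 (GRCm38), *H2-Aa* extends from 34282744 to 34287823 on the minus strand, *H2-Ab1* from 34257689 to 34269419, *H2-Eb1* from 34305867 to 34316674, *H2-DMa* from 34119541 to 34139101, and *H2-DMb1* from 34153072 to 34160230. *Ciita* (10480059 to 10528418), *Cd80* (38455561 to 38496335) and *Cd86* (36603869 to 36666081, minus strand) are on chromosome 16. Promoter windows of 300 bases, reaching from 250 bases before the start site to 50 after it, were taken from RefSeq (GRCm38.p6). Windows were found for 5 of the 9 genes, *H2-Aa*, *H2-Eb1*, *H2-DMa* (with 2 windows), *H2-DMb1* and *Cd80*. *H2-Ab1*, *Cd74*, *Ciita* and *Cd86* had no entry.

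Each window was searched on both strands for a core of the X box, TAGNNAC, and for the Y box, ATTGG, which do not overlap each other in these windows. Of 32851 windows, 30.7% held the X box core, 37.4% the Y box, and 0.989% both on the same strand with the Y box beginning 20 to 50 bases after the X box core. *H2-Eb1* and *H2-DMb1* held such a pair, with 34 and 35 bases from one beginning to the other. So did *H2-Ob*, a class II gene outside the 9 that encodes a chain of the H2-DM inhibitor H2-O, with 32 bases. *H2-Oa* and *H2-DMb2*, also class II genes outside the 9, held the Y box and no exact match of the X box core. *H2-Aa* held the Y box and no exact match of the X box core. The search takes exact letters only and misses an X box that differs from the pattern. Before its Y box, *H2-Aa* holds TGGCAAC, which differs from TAGNNAC in 1 letter. *H2-DMa* held a Y box in 1 of its windows. Those windows begin at 34122582 and 34125268, whereas the transcript with 63.9% to 100% of the *H2-DMa* FPKM starts at 34135182 in the table, so that the bases before this start were not searched. *Cd80* held an X box core alone, in the window of its annotated start (38458933), whereas other transcripts of the table start before it. The 130 bases before the start site are shown for the 3 genes with the pair and for *H2-Aa*, as the promoters on which Ciita is known to act, read in the direction of the gene, with each X box core and Y box of either strand in capitals. Their positions in GRCm38.p6 are chr17:34305737-34305866 (plus strand) for *H2-Eb1*, chr17:34153061-34153190 (plus) for *H2-DMb1*, chr17:34238775-34238904 (plus) for *H2-Ob* and chr17:34287824-34287953 (minus) for *H2-Aa*. The transcript with 76.1% to 97.0% of the *H2-DMb1* FPKM starts at 34153072 in the table, before the RefSeq start site. Most of the bases shown for *H2-DMb1*, with both boxes, therefore lie after the start of this transcript. A match of letters is a description and does not show that a factor is bound.
H2-Eb1: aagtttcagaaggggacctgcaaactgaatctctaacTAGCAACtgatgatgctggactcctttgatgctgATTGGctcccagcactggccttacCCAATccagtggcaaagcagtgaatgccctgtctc
H2-DMb1: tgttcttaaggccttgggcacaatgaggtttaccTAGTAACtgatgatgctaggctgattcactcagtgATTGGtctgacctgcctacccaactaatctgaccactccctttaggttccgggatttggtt
H2-Ob: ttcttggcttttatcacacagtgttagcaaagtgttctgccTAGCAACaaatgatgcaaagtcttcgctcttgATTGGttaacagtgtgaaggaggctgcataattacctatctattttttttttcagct
H2-Aa: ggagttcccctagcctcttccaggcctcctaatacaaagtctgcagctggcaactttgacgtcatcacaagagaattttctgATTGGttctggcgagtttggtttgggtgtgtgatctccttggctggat

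The HFD raised the level of each of the 9 genes. Class II chains, the invariant chain and *H2-DMa* were 2.64 to 2.84 times as high in mean FPKM as in the ND group, *Ciita* 4.71 times, *H2-DMb1* 5.31 times, *Cd80* 2.73 times and *Cd86* 2.01 times. By limma, 9 of 9 were called higher, where 14.9% of all genes tested were called higher. The HFD and ND mice overlapped for none of the 9, and over all genes tested 30.2% were higher in the HFD group without overlap. The median log2 difference of the 9 was 1.47, beside -0.02 over all genes tested. For a gene without overlap an exact permutation test gives a two-sided p of 0.1, the smallest that 3 mice against 3 allow.

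With CLE and with LU the levels lay between those of the ND and HFD groups. Both supplements shared the same HFD mice as their reference, so the comparisons are not independent. Against the HFD, 8 of 9 genes were called lower in the CLE group (10.1% of all genes tested were called lower), and *Cd86* was not. In the LU group, 2 of 9 genes, *H2-DMb1* and *Ciita*, were called lower (7.64% of all genes tested). When no fold change was required, 7 were lower at an adjusted p under 0.05 from limma, as were 1740 of all 12774 genes tested. For each of the 9 genes, every mouse of the CLE group and every mouse of the LU group was below the lowest HFD mouse. Among all genes tested, 26.2% were lower without overlap in the CLE group and 22.1% in the LU group. The median log2 difference of the 9 genes was -0.76 for CLE and -0.47 for LU, beside 0.01 and 0.03 over all genes tested.

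**Figure D1:**
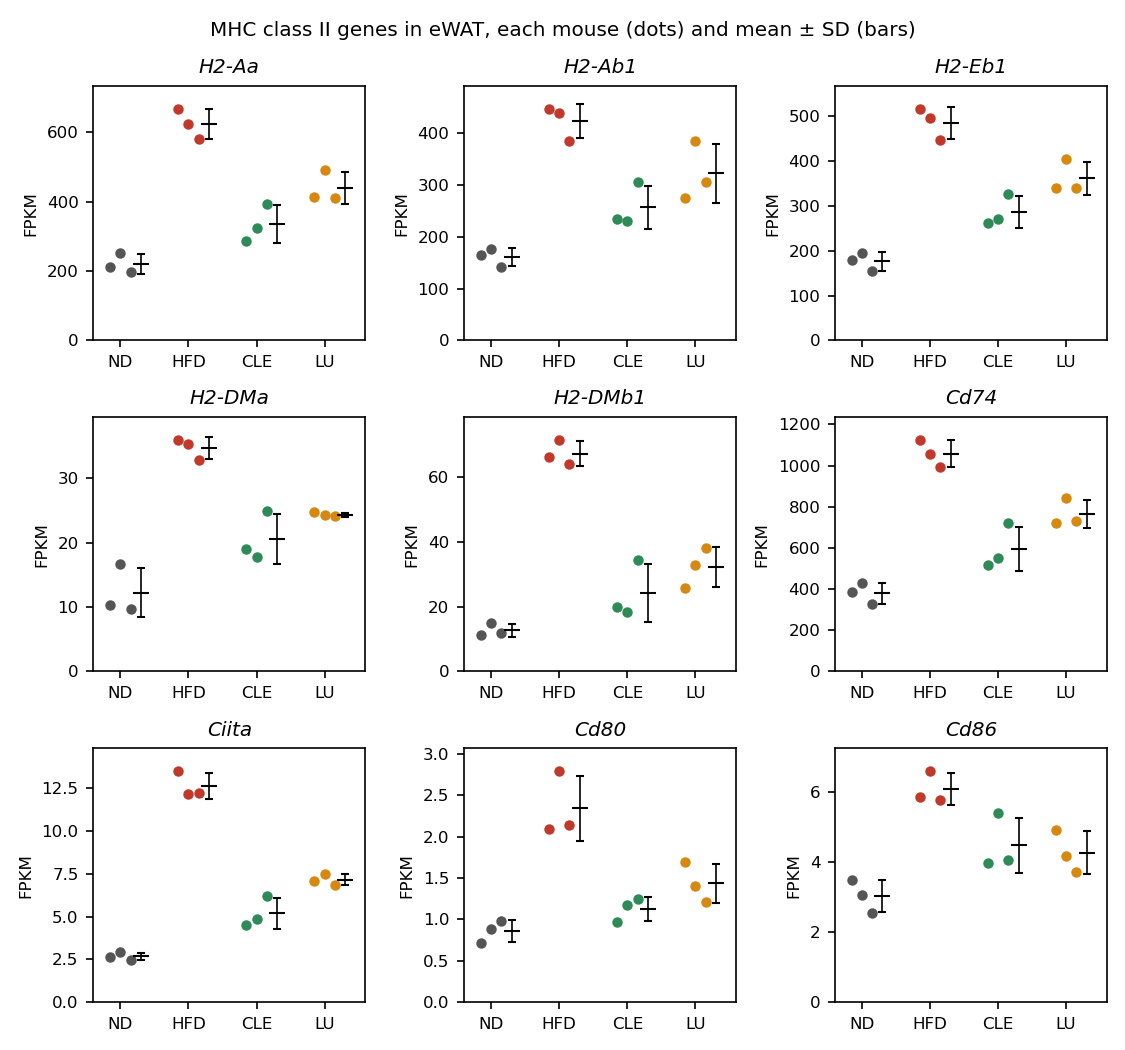
Level of each of the 9 genes in FPKM (vertical axes, each from 0) in the ND, HFD, CLE and LU groups, where each dot is 1 mouse and each bar the mean ± SD of 3 mice. In all 9 panels the 3 HFD mice are the highest, and the lowest HFD mouse for *H2-Aa* was at 580.7 FPKM against 492.5 FPKM in the highest other mouse.

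*H2-Aa* encodes the α chain of the I-A molecule. ND mice 2, 3 and 4 had 210.8, 252.1 and 196.4 FPKM, HFD mice 12, 15 and 18 had 666.8, 623.6 and 580.7 FPKM, CLE mice 2, 4 and 11 had 286.4, 324.1 and 393.9 FPKM, and LU mice 2, 3 and 8 had 414.1, 492.5 and 412.0 FPKM. The 4 groups did not overlap in any pair, in the order ND, CLE, LU and HFD. The log2 difference was 1.51 for HFD against ND (standard error 0.13, limma adjusted p = 5.0e-06), -0.91 for CLE against HFD (adjusted p = 0.00041) and -0.51 for LU against HFD (adjusted p = 0.016). The last value is a change of less than 1.5-fold.

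*H2-Ab1* and *H2-Eb1* encode the β chains of I-A and of I-E. C57BL/6 mice are known not to make an I-E α chain, so their I-E β chain has no partner to reach the cell surface with. *H2-Eb1* was at 179.7, 195.6 and 154.1 FPKM in the ND mice, 516.2, 495.4 and 446.5 FPKM in the HFD mice, 261.4, 272.0 and 326.2 FPKM in the CLE mice and 340.7, 404.8 and 340.1 FPKM in the LU mice, each in the order of mice given for *H2-Aa*. Its groups, too, were apart in every pair, and it rose by 1.46 on the log2 scale with the HFD (standard error 0.12, limma adjusted p = 3.0e-06) and fell by 0.76 with CLE (adjusted p = 0.00064). *H2-Ab1* was at 142.2 to 175.6 FPKM in the ND group, 385.7 to 446.2 FPKM in the HFD group, 230.9 to 305.2 FPKM in the CLE group and 275.5 to 385.6 FPKM in the LU group. Here LU mouse 3, at 385.6 FPKM, was just under HFD mouse 18, at 385.7 FPKM, and the LU group overlapped with the CLE group. The log2 difference of *H2-Ab1* was -0.73 for CLE against HFD (adjusted p = 0.0028) and -0.40 for LU against HFD (limma adjusted p = 0.060), which did not pass the test.

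*Cd74*, the invariant chain, extends on chromosome 18 from 60803848 to 60812652 and had the highest level of the 9 genes in every library. It was at 385.8, 427.8 and 327.4 FPKM in the ND mice, 1124, 1059 and 991.1 FPKM in the HFD mice, 517.6, 551.3 and 719.0 FPKM in the CLE mice and 719.2, 843.1 and 728.4 FPKM in the LU mice. CLE mouse 11 and LU mouse 2 were almost level, and otherwise the order was that of *H2-Aa*. The log2 difference was 1.48 for HFD against ND (standard error 0.14, limma adjusted p = 6.5e-06), -0.84 for CLE against HFD (adjusted p = 0.00076) and -0.47 for LU against HFD (adjusted p = 0.025, under 1.5-fold). The ratio of *Cd74* to *H2-Aa* was between 1.67 and 1.83 in the 12 libraries, and that of *H2-Eb1* to *H2-Aa* between 0.769 and 0.913. In both ratios the HFD and ND mice overlapped.

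The deposited table splits *Cd74* into transcripts. One annotated form has 8 exons and 1224 bases, and the other has 9 exons and 1410 bases. The additional exon of the longer form is known to encode a thyroglobulin-type domain that can bind cathepsins. Its share of the *Cd74* FPKM was 24.1%, 25.1% and 25.9% in the ND mice, 30.1%, 28.1% and 28.6% in the HFD mice, 27.6%, 27.3% and 25.6% in the CLE mice and 26.4%, 27.2% and 28.0% in the LU mice. The HFD shares lay above all ND and LU shares and all CLE shares, with LU mouse 8 at 27.96% just under HFD mouse 15 at 28.09%. These shares are estimates by the authors' software from overlapping reads, and they carry no test.

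*H2-DMa* and *H2-DMb1* encode the chains of H2-DM, the molecule that loads peptides. *H2-DMa* was at 10.3, 16.6 and 9.77 FPKM in the ND mice, 35.9, 35.4 and 32.8 FPKM in the HFD mice, 18.9, 17.8 and 24.9 FPKM in the CLE mice and 24.7, 24.2 and 24.1 FPKM in the LU mice. CLE mouse 11 was above all LU mice, so these groups overlapped, whereas ND and HFD lay apart from the rest. *H2-DMa* rose by 1.47 on the log2 scale with the HFD (standard error 0.17, limma adjusted p = 3.5e-05) and fell by 0.74 with CLE (adjusted p = 0.0065). The fall of 0.49 with LU had an adjusted p of 0.053.

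*H2-DMb1* was at 11.20, 15.03 and 11.82 FPKM in the ND mice, 66.4, 71.5 and 64.1 FPKM in the HFD mice, 19.9, 18.4 and 34.4 FPKM in the CLE mice and 25.8, 33.0 and 38.3 FPKM in the LU mice. All HFD mice stood far above the other 9, and CLE mouse 11 lay among the LU mice. The log2 difference was 2.33 for HFD against ND (standard error 0.21, limma adjusted p = 6.1e-06), -1.49 for CLE against HFD (adjusted p = 0.00034) and -1.05 for LU against HFD (adjusted p = 0.0043). Of the 8 transcripts the table names *H2-DMb1*, 5 belong to the neighbouring and similar gene *H2-DMb2* in GENCODE. These made up 2.07% to 23.5% of the sum, at 1.46 to 3.53 FPKM, and reads of 2 such similar genes can be split wrongly. Without them, an alternative chosen after seeing the data, the log2 differences were 2.55, -1.59 and -1.11. The ratio of *H2-DMa* to *H2-DMb1* was 0.827 to 1.11 in the ND mice and 0.494 to 0.542 in the HFD mice, without overlap, and 0.725 to 0.972 in the CLE mice and 0.631 to 0.960 in the LU mice.

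*Ciita*, the coactivator, was low per length beside the genes it acts on. It was at 2.62, 2.92 and 2.49 FPKM in the ND mice, 13.5, 12.1 and 12.2 FPKM in the HFD mice, 4.50, 4.86 and 6.22 FPKM in the CLE mice and 7.072, 7.502 and 6.857 FPKM in the LU mice. No pair of groups overlapped, and the highest mouse outside the HFD group was LU mouse 3. *Ciita* rose by 1.89 on the log2 scale with the HFD (standard error 0.10, limma adjusted p = 5.7e-07), and fell by 1.14 with CLE (adjusted p = 3.0e-05) and by 0.74 with LU (adjusted p = 0.00057). The summed FPKM of the 3 chains was 198 to 214 times that of *Ciita* in the ND mice, 116 to 128 times in the HFD mice, 165 to 174 times in the CLE mice and 146 to 171 times in the LU mice. This ratio was lower in each HFD mouse than in any other mouse.

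*Ciita* is known to be read from alternative promoters in different cell types. The table holds 3 transcripts of it, with starts at 10479821 (assembled from the reads), 10488178 (annotated) and 10489735 (assembled). The first start gave 27.1%, 35.5% and 21.1% of the *Ciita* FPKM in the ND mice, 35.8%, 37.45% and 39.1% in the HFD mice, 29.1%, 27.8% and 30.6% in the CLE mice and 34.7%, 39.8% and 32.6% in the LU mice. HFD mice were above all ND and CLE mice but not above LU mouse 3. In FPKM, the first start was at 0.525 to 1.04 in the ND mice and 4.55 to 4.82 in the HFD mice, and the annotated start at 1.72 to 1.85 and 7.28 to 8.51, so both were higher with the HFD without overlap. The annotated start gave 55.7% to 74.2% over the 12 libraries and the third start at most 5.45%.

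**Figure D2:**
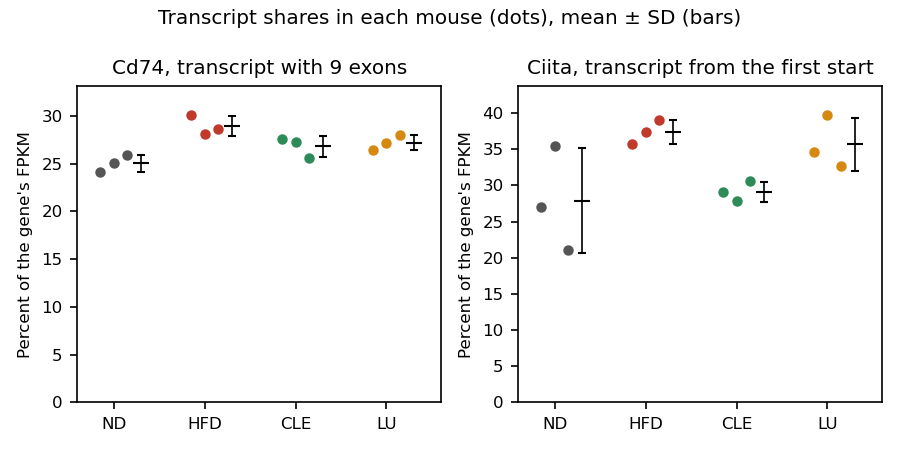
Share, in percent of the gene's FPKM (vertical axes, from 0), of the *Cd74* transcript with 9 exons and of the *Ciita* transcript from the first start, with 1 dot per mouse and bars for the mean ± SD of 3 mice in each group. The *Cd74* share was 24.1% to 25.9% in ND mice and 28.1% to 30.1% in HFD mice, and the *Ciita* shares of HFD and LU mice overlap.

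*Cd80* and *Cd86* encode the co-stimulatory ligands of CD28 and CTLA4 on T cells. *Cd80* was at 0.712, 0.885 and 0.978 FPKM in the ND mice, 2.09, 2.79 and 2.14 FPKM in the HFD mice, 0.964, 1.17 and 1.24 FPKM in the CLE mice and 1.69, 1.40 and 1.21 FPKM in the LU mice. CLE mouse 2 lay among the ND mice, and only the HFD mice were apart from all others. *Cd80* rose by 0.84 on the log2 scale with the HFD (standard error 0.11, limma adjusted p = 7.3e-05) and fell by 0.65 with CLE (adjusted p = 0.00096). Without HFD mouse 15, the highest, the fall with CLE was 0.55, under 1.5-fold on the log2(FPKM + 1) scale, although the other HFD mice were at 2.09 and 2.14 FPKM and no CLE mouse above 1.24 FPKM. The added 1 shrinks differences at this level, and with a pseudocount of 0.1 the fall over all mice was 0.99 (adjusted p = 0.0012). Transcripts assembled from the reads gave 62.0% to 100% of the *Cd80* FPKM over the 12 libraries. From annotated transcripts alone *Cd80* was too low to test.

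*Cd86* was at 3.48, 3.06 and 2.55 FPKM in the ND mice, 5.87, 6.60 and 5.78 FPKM in the HFD mice, 3.98, 5.40 and 4.07 FPKM in the CLE mice and 4.93, 4.17 and 3.73 FPKM in the LU mice. CLE and LU mice were mixed, between the ND mice and the HFD mice. *Cd86* rose by 0.82 on the log2 scale with the HFD (standard error 0.13, limma adjusted p = 0.00027), and its differences of -0.38 with CLE (adjusted p = 0.038) and -0.43 with LU (adjusted p = 0.027) were under 1.5-fold. From annotated transcripts alone the HFD difference was 0.51 (adjusted p = 0.034), also under 1.5-fold.

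**Figure D3:**
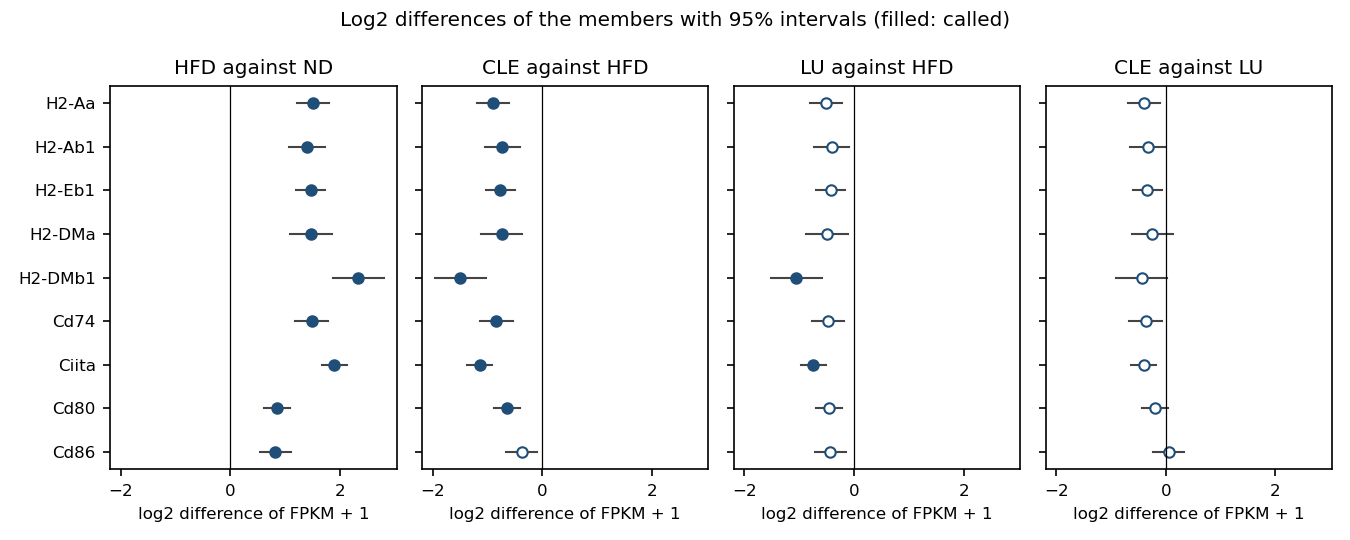
Difference of the 9 genes on the log2(FPKM + 1) scale (horizontal axes) in 4 comparisons, of the HFD with the ND group, of CLE and of LU with the HFD group, and of CLE with LU, with 95% intervals from limma as lines and called genes as filled points. All 9 points are filled for HFD against ND, 8 for CLE, 2 for LU, and 0 for CLE against LU.

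Between the supplements, the estimates were lower with CLE than with LU for 8 of 9 genes, but 0 of 9 were called by limma (0.00783% of all genes tested were called lower and 0% higher). The adjusted p was between 0.89 and 0.97. An unadjusted p under 0.05 was found for 5 of 9 genes, a limit at which the share over all genes was not counted. CLE and LU mice did not overlap for 4 genes, *H2-Aa*, *H2-Eb1*, *Cd74* and *Ciita*, each lower with CLE, and 6.34% of all genes tested were lower in this way. *Ciita* differed by -0.40 on the log2 scale (95% interval -0.63 to -0.18), *H2-Aa* by -0.40 (-0.69 to -0.11) and *H2-DMb1* by -0.44 (-0.91 to 0.02). For *Cd86* the difference was 0.05 (-0.23 to 0.33). The intervals are not adjusted for the number of genes tested.

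With a supplement, levels stayed above those of the ND group for most of the 9 genes. Of the 9 genes, 7 were called higher with LU than in the ND group (4.97% of all genes tested were called higher), with log2 differences of 0.98 for *H2-DMa* to 1.28 for *H2-DMb1*. *Cd86* (0.39, limma adjusted p = 0.066) did not pass the test. *Cd80* (0.39, adjusted p = 0.038) was under 1.5-fold on the log2(FPKM + 1) scale, although its mean FPKM was 1.67 times as high with LU as in the ND group. With a pseudocount of 0.1 its difference was 0.68 (adjusted p = 0.021), and 8 of 9 genes were then called. LU and ND mice overlapped for none of the 9 (18.5% of all genes tested were higher with LU without overlap). With CLE the same 7 genes were called higher than in the ND group (2.07% of all genes tested), with log2 differences of 0.60 for *H2-Aa* to 0.84 for *H2-DMb1* and adjusted p between 0.0094 and 0.045. CLE and ND mice did not overlap for 8 of 9 genes, the exception being *Cd80* (13.2% of all genes tested were higher with CLE without overlap).

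These 7 calls with CLE against ND depended on how the fit was made. They numbered 2 without ND mouse 2, 2 without ND mouse 4, 4 without CLE mouse 4, 2 without CLE mouse 11 and 0 when CLE and ND mice were fitted alone. Where the 2 groups were fitted alone the differences were as before and the adjusted p rose, for *H2-Aa* (0.60) from 0.030 to 0.13 by limma. The log2 difference of *Ciita* stayed between 0.63 and 0.92 over all alternatives, and its call was lost in 3 of them, with the 2 groups alone (adjusted p = 0.086), without the libraries with the letter R (adjusted p = 0.081) and with a replicate block (adjusted p = 0.16). The 8 libraries without the letter R leave ND mouse 2 as the only ND mouse, so that comparisons with the ND group take their spread from the other groups and assume that ND mice vary as those do. Among these libraries, 9 genes were called for HFD against ND, 8 for CLE against HFD, 2 for LU against HFD, 7 for LU against ND and 1 for CLE against ND. No library with the letter is of the HFD group, so the HFD could not be compared among these. Without HFD mouse 12 and CLE mouse 11, the 2 libraries with high *Krt14*, the counts were 9, 8, 2, 7 and 1 in the same order.

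Most enzymes and regulators that prepare class II molecules were higher with the HFD and lower with a supplement. Of 12 names listed, 10 were found and tested, and 8 were called higher with the HFD, 7 lower with CLE and 7 lower with LU (over all genes tested 14.9%, 10.1% and 7.64%), with median log2 differences of 1.56, -1.14 and -0.87. *Ctsd*, *Ctsb* and *Ctsl* encode lysosomal proteases and, with *Cst3*, had the highest levels of the list. *Ctsb* was at 332 to 442 FPKM in the ND mice, 1103 to 1230.4 FPKM in the HFD mice, 485 to 628 FPKM in the CLE mice and 555 to 700 FPKM in the LU mice. It rose by 1.55 on the log2 scale with the HFD (limma adjusted p = 6.1e-06), and *Ctsl* by 1.58 (adjusted p = 3.4e-05) and *Ctsd* by 1.29 (adjusted p = 0.00024). *Cst3*, which encodes the inhibitor cystatin C, was at 403 to 553 FPKM in the ND mice and 578 to 589 FPKM in the HFD mice and was not called (0.23, adjusted p = 0.14). *March8*, named after its values were seen, encodes a ubiquitin ligase and was not called either (0.14, limma adjusted p = 0.31).

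*Ctss*, chosen after its values were seen, encodes cathepsin S, the protease known for the last cuts in the invariant chain. It was at 25.5, 36.1 and 27.3 FPKM in the ND mice, 504, 417 and 387 FPKM in the HFD mice, 53.8, 75.2 and 159 FPKM in the CLE mice and 118, 127 and 171 FPKM in the LU mice. Its ratio to *H2-Aa* was 0.121 to 0.143 in the ND mice and 0.666 to 0.756 in the HFD mice, and between these in the others. *Ctss* rose by 3.84 on the log2 scale with the HFD (limma adjusted p = 2.9e-06). *March1*, also chosen after its values were seen, encodes a ubiquitin ligase that sends class II molecules and Cd86 to degradation. It rose by 2.15 (adjusted p = 6.0e-07), from 1.73 to 2.54 FPKM in the ND mice to 11.7 to 14.2 FPKM in the HFD mice.

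Of 5 other class II genes listed, 3 were found under their own names and were low. *H2-Ea* was not found, and the transcripts of *H2-DMb2* were summed with *H2-DMb1*, as given above. These *H2-DMb2* transcripts were at 1.50 to 3.53 FPKM in the ND mice and 1.48 to 1.61 FPKM in the HFD mice. *H2-Ob*, whose promoter is shown above with the X and Y boxes, was at 0.984 to 2.01 FPKM over the ND mice and 1.48 to 1.88 FPKM over the HFD mice, and was not called (log2 difference 0.23, limma adjusted p = 0.22). *H2-Oa*, its partner chain, and *H2-Eb2* did not pass the filter on low values, with at most 1.01 and 0.337 FPKM.

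Factors of the X and Y boxes did not move as one. Of 7 tested, 1 was called higher with the HFD and 2 lower (over all genes tested 14.9% and 10.8%), with a median of -0.14. *Nfya* and *Nfyb* encode subunits of NF-Y, which binds the Y box. *Nfya* rose by 0.88 on the log2 scale (limma adjusted p = 0.00015) while *Nfyb* fell by 0.60 (adjusted p = 0.00031). *Rfxap*, which encodes a subunit of RFX, the complex of the X box, fell by 0.64 (adjusted p = 0.0017), and *Creb1* was not called (0.24, adjusted p = 0.18).

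Interferon gamma is the best known inducer of *Ciita* outside professional antigen-presenting cells. *Ifng* itself was between 0 and 0.214 FPKM in the 12 libraries and did not pass the filter. Of 8 genes tested from its receptor to *Ciita*, 1 was called higher with the HFD (over all genes tested 14.9%). It was the receptor chain *Ifngr2*, named after its values were seen (0.63, limma adjusted p = 0.0054). The median was -0.08. *Irf1*, which acts on a *Ciita* promoter, was at 33.0 to 38.2 FPKM in the ND mice and 25.002 to 26.47 FPKM in the HFD mice, lower without overlap, and its difference of -0.45 (adjusted p = 0.0036) was under 1.5-fold. *Jak1* was at 0.58 (adjusted p = 0.00052) and *Ifngr1* at -0.26 (adjusted p = 0.039), both under 1.5-fold.

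Other co-stimulatory genes were mostly too low to test. Of 12 listed, 4 passed the filter, and with the HFD 2 were called higher and 1 lower (over all genes tested 14.9% and 10.8%). *Cd40* rose by 1.32 (limma adjusted p = 2.3e-05) and *Cd276* by 1.64 (adjusted p = 9.8e-07), and both were called lower with CLE and with LU. *Cd274*, which encodes the inhibitory ligand PD-L1, fell by 0.74 with the HFD (adjusted p = 0.0011), from 13.8 to 17.3 FPKM in the ND mice to 7.999 to 9.630 FPKM in the HFD mice. *Icosl* differed by 0.49 (adjusted p = 0.0029), under 1.5-fold. On the side of the T cell, *Cd28* was at most 0.815 FPKM and *Cd4* at most 1.14 FPKM in any library.

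The MHC class I pathway, which displays peptides from inside the cell to CD8+ T cells, was compared in the same way. Of 14 genes tested, 4 were called higher with the HFD, 1 lower with CLE and 0 lower with LU in limma (over all genes tested 14.9%, 10.1% and 7.64%), so that the counts with the supplements were not above the share over all genes. For LU, 4 of the 14 were lower at an unadjusted p under 0.05 (share over all genes not counted), and the medians were 0.29, -0.25 and -0.05. *B2m*, the chain shared by class I molecules, was at 2133 to 3152 FPKM in the ND mice and 3336 to 3807 FPKM in the HFD mice (0.39, limma adjusted p = 0.051). *H2-K1* rose by 0.63 (adjusted p = 0.0062), *H2-D1* was not called (0.19, adjusted p = 0.23), and *Calr*, a chaperone, rose by 0.97 (adjusted p = 0.00012). The summed FPKM of the class II chains was 0.318 to 0.466 times that of *H2-K1* and *H2-D1* in the ND mice, 0.817 to 0.873 times in the HFD mice, 0.572 to 0.649 times in the CLE mice and 0.609 to 0.735 times in the LU mice. Each HFD mouse was above each other mouse in this ratio, and each ND mouse below.

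Most markers of macrophages moved in the same order as the class II genes. Of 8 tested, 7 were called higher with the HFD, 7 lower with CLE and 7 lower with LU (over all genes tested 14.9%, 10.1% and 7.64%), with medians of 2.52, -1.80 and -1.44. Their summed FPKM was 327 to 496 in the ND mice, 2217 to 2545 in the HFD mice, 571 to 834 in the CLE mice and 901 to 1021 in the LU mice, and none of the 8 was at 0. *Mertk*, a receptor for dying cells named after its values were seen, was the marker not called in any of the 3 comparisons, at 19.3 to 22.5 FPKM in the ND mice, 22.2 to 26.0 FPKM in the HFD mice, 19.9 to 32.4 FPKM in the CLE mice and 21.3 to 24.0 FPKM in the LU mice. *Lyz2* (lysozyme) rose by 2.56, *Cd68* by 4.08, *Adgre1* (F4/80) by 3.92 and *Csf1r* by 2.39 on the log2 scale (limma adjusted p between 6.0e-07 and 1.3e-06), and *Mrc1* (CD206), named after its values were seen, rose by 1.37 (adjusted p = 1.1e-05), less than the median of the 9 genes. In whole tissue, fewer cells of a type and less RNA per cell cannot be told apart. The part of macrophages in the class II levels was not tested.

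Set against single macrophage markers within each mouse, the class II level gave different pictures. The ratio of *H2-Aa* to *Adgre1* was 22.0 to 27.0 in the ND mice, 4.06 to 4.75 in the HFD mice, 12.3 to 17.96 in the CLE mice and 9.59 to 16.0 in the LU mice. The ratio to *Csf1r* was 7.74 to 9.35 in the ND mice and 4.13 to 4.66 in the HFD mice, and 7.04 to 9.95 in the 6 mice with a supplement. Both ratios were lower in each HFD mouse than in any other mouse. The ratio to *Mrc1* was 8.87 to 11.5 in the ND mice and 10.004 to 11.3 in the HFD mice, which overlapped, and 10.3 to 16.3 in the CLE mice and 12.0 to 13.3 in the LU mice.

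**Figure D4:**
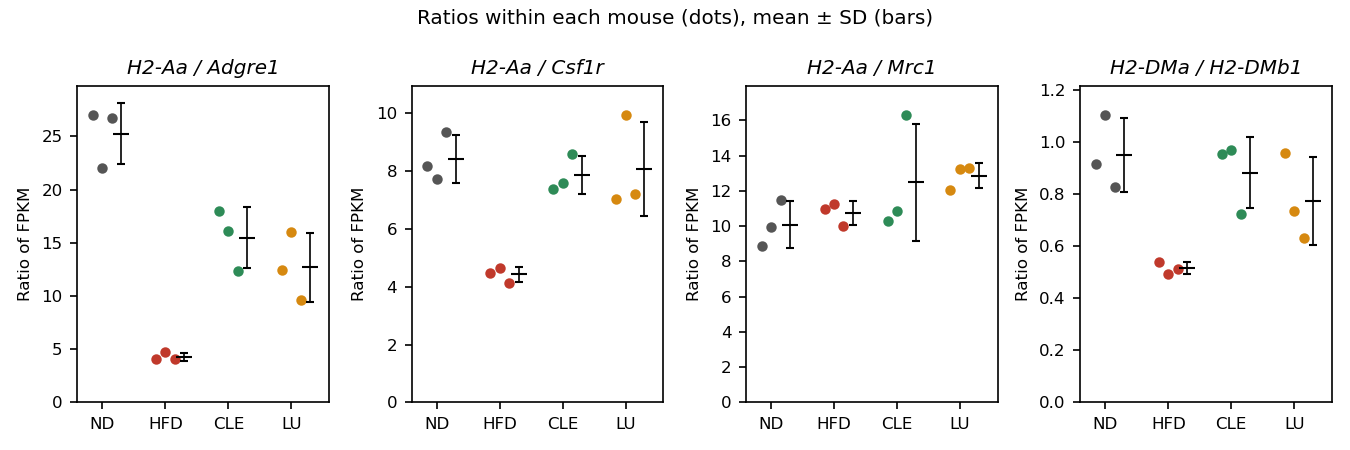
Ratio of FPKM within each mouse (vertical axes, from 0) for *H2-Aa* over the macrophage markers *Adgre1*, *Csf1r* and *Mrc1* and for *H2-DMa* over *H2-DMb1*, with 1 dot per mouse and bars for the mean ± SD of 3 mice. *H2-Aa* over *Adgre1* is 22.0 to 27.0 in ND mice and 4.06 to 4.75 in HFD mice, whereas *H2-Aa* over *Mrc1* overlaps between these groups.

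Other cells that carry class II molecules were checked in the same way. Among dendritic cell markers, 8 were tested, and with the HFD 2 were called higher and 1 lower (over all genes tested 14.9% and 10.8%). By limma's adjusted p alone, 5 were higher and 2 lower (over all genes tested 3278 and 3167 of 12774). *Itgax* (CD11c), which macrophages of obese adipose tissue also express, was at 1.73 to 2.57 FPKM in the ND mice and 72.0 to 103 FPKM in the HFD mice and rose by 4.76 (limma adjusted p = 1.2e-05). *Zbtb46*, a factor of conventional dendritic cells, was at 13.4 to 21.8 FPKM in the ND mice and 9.30 to 13.0 FPKM in the HFD mice (-0.58, adjusted p = 0.024, under 1.5-fold), *Cd209a* was not called (-0.26, adjusted p = 0.33), and *Irf4* fell by 2.65 (adjusted p = 3.6e-05). Which cells of the whole tissue the transcripts of these markers came from was not tested. The rest of the list was named after its values were seen. *Clec9a*, a receptor of cross-presenting dendritic cells, was at 1.69 to 2.89 FPKM in the ND mice and 2.95 to 4.67 FPKM in the HFD mice and rose by 0.62 (limma adjusted p = 0.011). *Flt3* (0.56, adjusted p = 0.0014), *Batf3* (0.45, adjusted p = 0.0093) and *Ccr7* (0.47, adjusted p = 0.035) were higher with the HFD without overlap, under 1.5-fold on the log2(FPKM + 1) scale. Against the HFD, *Itgax* was the only one of the 8 called lower with CLE and with LU (over all genes tested 10.1% and 7.64%). In the same comparisons 1 was called higher with CLE and 0 with LU (over all genes tested 809 and 614 of 12774). The B cell markers *Ms4a1* and *Cd79a* were at most 0.153 and 0.088 FPKM in the HFD mice, and up to 1.23 and 1.63 FPKM in the ND mice. Of the B cell list, 3 of 8 were tested, and *Ighm* (0.98, adjusted p = 0.0037) and *Cd22* (1.44, adjusted p = 0.0020) were called higher with the HFD (over all genes tested 14.9%). Of 6 T cell markers, 4 were tested and 0 were called by limma for HFD against ND, with unadjusted p under 0.05 for 0.

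Adipocyte markers moved the other way, *Lep* excepted. Of 6 tested, 5 were called lower with the HFD and 1 higher (over all genes tested 10.8% and 14.9%). The 5 included *Adipoq*, which fell by 0.84 (limma adjusted p = 0.00019), and *Fabp4*, which fell by 0.85 (adjusted p = 3.7e-05). *Lep*, which encodes leptin, rose by 2.34 (adjusted p = 9.7e-06). Their part in the class II levels was not tested.

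**Figure D5:**
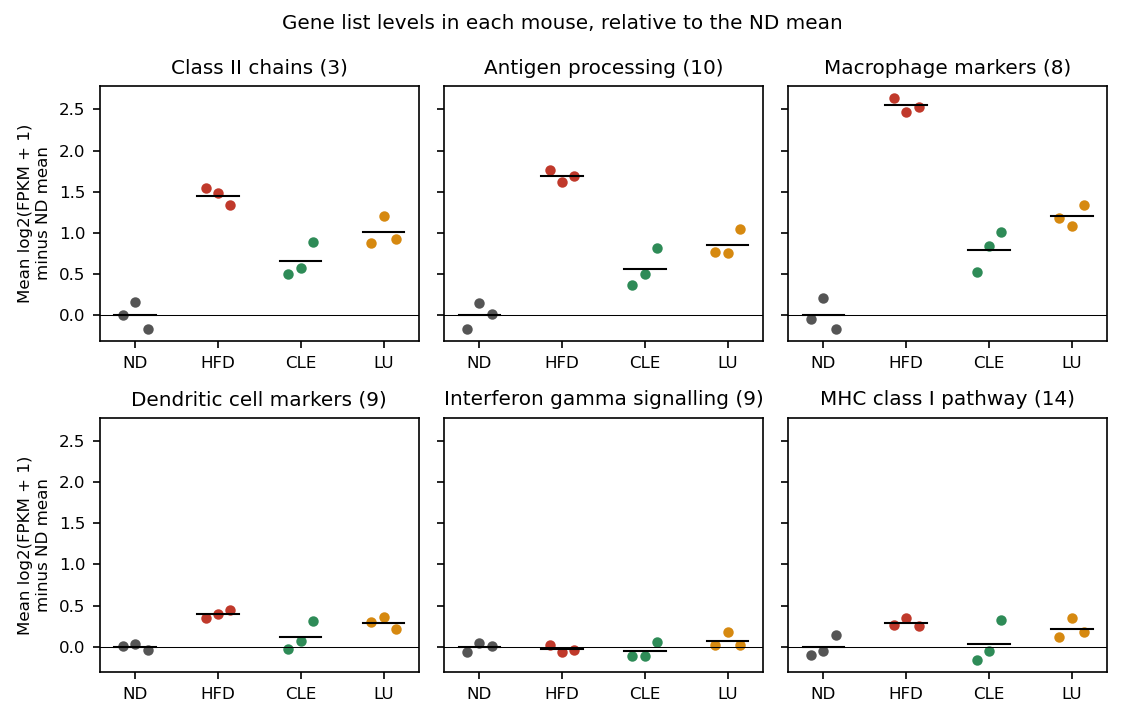
Mean log2(FPKM + 1) over the genes of each list, minus the mean of the 3 ND mice (vertical axis, shared), with 1 dot per mouse and a line for each group mean. From ND to HFD the mean moved by 1.45 for the 3 class II chains, 1.69 for antigen processing, 2.55 for macrophage markers, 0.40 for dendritic cell markers, -0.02 for interferon gamma signalling and 0.29 for the MHC class I pathway.

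The genes whose profile over the 12 libraries was most like that of the class II chains were found by the root mean square difference of log2(FPKM + 1), after each profile was centred, from the mean of *H2-Aa*, *H2-Ab1* and *H2-Eb1*. Over the 12765 other genes tested, they were *Ccl6* (0.129), *AB124611* (0.142), *Ctsh* (0.145), *Cytip* (0.149) and *Serping1* (0.159), against a median of 0.579 over all genes tested. *Ccl6*, a chemokine, was at 42.9 to 58.1 FPKM in the ND mice, 144 to 172 FPKM in the HFD mice, 72.8 to 89.3 FPKM in the CLE mice and 93.6 to 104 FPKM in the LU mice. *Ctsh*, a lysosomal protease, was at 33.4 to 44.0 FPKM in the ND mice and 101 to 122 FPKM in the HFD mice. By the same measure *Cd74* was at 0.035, *H2-DMa* at 0.140, *Ciita* at 0.177, *Cd80* at 0.302, *Cd86* at 0.331 and *H2-DMb1* at 0.374. *Cd74* was thus nearer to the chains than any gene outside the 9, and *H2-DMb1* was the farthest of the 9.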

How the data were processed

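Total RNA of eWAT was sequenced as paired-end reads of 100 bases. The submitters' processing notes name CASAVA 1.8.2, Bowtie2 2.2.3, TopHat2 2.0.12 and Cufflinks 2.2.1, and the methods name Cuffdiff 2.2.1. The authors deposited FPKM values per library for 152210 transcripts, known and assembled. The genome build is not given in the sources used here, and 87.6% of annotated transcripts share start and end with GENCODE M21 (GRCm38). Left out were 3 FPKM columns with no matching sample. Columns that mark the authors' own calls, at fold and p-value cutoffs, were not used.

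Transcripts with an Ensembl identifier were summed by gene name (47 for the 9 genes). Genes with at least 1 FPKM in at least 3 libraries were fitted as log2(FPKM + 1) with limma 3.58.1 (R 4.3.3), with all 12 libraries in 1 fit, and p-values were adjusted by Benjamini-Hochberg within each contrast. The authors' test on read counts could not be repeated on FPKM. Each library is 1 mouse. The limma p-values rest on the spread between mice within a group, pooled over the 4 groups of 3 and drawn in part from all genes tested. In simulated data for HFD against ND with 12774 genes, 91.5% of 200 genes changed by 1 on the log2 scale were called, with 6 others.

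The 9 genes and the gene lists were chosen with earlier results of these data known. Named were the 9 genes, up to 4 genes per list with the highest mean FPKM, and the 5 genes most like the class II chains. Some listed genes are not reported here by name. Alternatives were a pseudocount of 0.1, no filter or a mean of 5 FPKM, equal totals, median ratios, quantile normalization, the 2 groups alone, a trend, array weights, a term for the letter R or its libraries left out, adjusted p alone, 1 transcript per gene, annotated transcripts alone, a replicate block and each library left out, and, added after seeing the data, *H2-DMb1* by GENCODE and both libraries with high *Krt14* left out. Mouse numbers shared between groups were not treated as pairs, except in the replicate block.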

Additional observations from a re-analysis of the deposited data

How the results depend on the processing

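No difference of the 9 genes changed sign under any alternative where it was called. Where all 9 genes were tested, 9 were called for HFD against ND, 7 to 9 for CLE against HFD and 6 to 8 for LU against ND. With a mean of at least 5 FPKM only 7 genes were tested, and all 7 were called in each of these comparisons. With 1 transcript per gene or annotated transcripts alone, *Cd80* did not pass the filter, 8 were tested and 7 called in each. The 7 calls for CLE against ND fell to 2 with no filter, 0 with the 2 groups alone, 4 with the letter R as a covariate, 2 with the transcript of the highest mean, 4 with annotated transcripts alone, 1 without the libraries with the letter R (with a lone ND mouse, assumed to vary like the other groups), and 1 without HFD mouse 12 and CLE mouse 11. When each library was left out in turn, they ranged from 2 to 7. The 2 calls for LU against HFD became 7 with the adjusted p alone, at which 1740 of all 12774 genes tested were lower. With the replicate block, by mouse numbers that ND, CLE and LU share, 0 genes were called for CLE against ND, 6 for LU against ND and 0 for CLE against LU. Deviations of same-numbered mice correlated at -0.099 to 0.19. So few values cannot exclude a weak pairing. The HFD group shares no number. Over all genes, calls for CLE against ND, 264 higher and 109 lower, became 0 and 0 with the 2 groups alone, 41 and 20 with no filter, and 19 and 10 without HFD mouse 12 and CLE mouse 11. The cause of these changes was not tested. FPKM without counts give no depth, which limits what can be said of *Cd80* and other genes near 1 FPKM.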
